A study of Homo sapiens with 6 samples.

Results

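Glutathione synthesis, glutathione recycling and the glutathione peroxidases were followed in human corneal endothelial cells after knockdown of NAMPT. The 10 genes are GCLC, GCLM, GSS, GSR, GPX1, GPX2, GPX4, SLC7A11, GSTP1 and MGST1. They were taken by gene symbol from a table of 50868 genes, and all 10 were found in it. RNA was sequenced from B4G12, an immortalised clonal line derived from the endothelium at the back of the human cornea. The siControl group (3 libraries, genotype labelled WT) received a control siRNA, and the siNAMPT group (3 libraries, genotype labelled NAMPT knockdown) received an siRNA against NAMPT. Both groups were thus transfected, and the labels give neither siRNA sequences nor a dose or a time after transfection. Nothing in the labels states that the replicates were grown separately, so the p-values cover the spread among these 6 libraries, which may be technical.

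Glutathione is a tripeptide of glutamate, cysteine and glycine that reaches millimolar levels in most cells. Cystine enters through SLC7A11 and is reduced to cysteine, the GCLC and GCLM subunits join cysteine to glutamate, GSS adds glycine, peroxidases such as GPX1, GPX2 and GPX4 spend glutathione on peroxides, transferases such as GSTP1 and MGST1 join it to other compounds, and GSR reduces the oxidised form again with NADPH. NADPH derives from NADP, which cells make from NAD, and NAMPT catalyses the rate-limiting reaction of NAD salvage. The corneal endothelium lies in the path of light and hardly renews itself in adult humans, and glutathione is known to help it keep its barrier and its fluid pump.

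Total counts were 19510796 to 22364717 per library, and the detection floor, taken as 3 counts, lay at 0.132 to 0.152 CPM (counts scaled to library size with TMM factors). NAMPT was at 163.6, 170.0 and 184.0 CPM in the siControl libraries and at 26.7, 29.1 and 29.7 CPM in the siNAMPT libraries, which is 83.5% lower. The first principal component separated the groups. Of 17 corneal endothelial markers 8 were abundant enough to test, with the transporter SLC4A11 at 30.3 CPM in siControl, while CD200 and TFAP2B had no count. Of 16 epithelial markers 14 were testable, KRT5 stood at 1929 CPM and KRT12, a keratin of the corneal epithelium, had no count. The labelled cell type is therefore carried by only some of its markers. The summed level of the epithelial list was 6567 to 7144 CPM under siControl and 7478 to 8480 CPM under siNAMPT, that of the corneal endothelial list 1494 to 1537 and 1503 to 1612 CPM, and the part of these markers in the differences below was not tested. Stromal markers summed to 5.33 to 7.48 and 8.33 to 9.73 CPM and vascular endothelial markers to 9.69 to 11.4 and 13.4 to 15.3 CPM, with KERA and KDR at 0.

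Of the 10 genes, 9 had counts high enough to be tested. In siNAMPT 4 rose (GCLC, GCLM, GSS and GPX2), 1 fell (GSR) and 4 did not pass the test (GPX1, GPX4, SLC7A11 and GSTP1), while MGST1 was close to the detection floor. A call is an adjusted p under 0.05 in the quasi-likelihood test of edgeR, after Benjamini-Hochberg adjustment over the 15213 genes tested, of which 42.7% were called, 20.8% higher and 21.9% lower. The 5 called genes were also the 5 whose siControl and siNAMPT libraries did not overlap, against 54.9% of all genes. The median log2 fold change of the 9 genes was 0.24, against 0.00 over all genes tested. In bulk RNA, fewer cells of a type and less RNA per cell cannot be told apart.

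**Figure D1:**
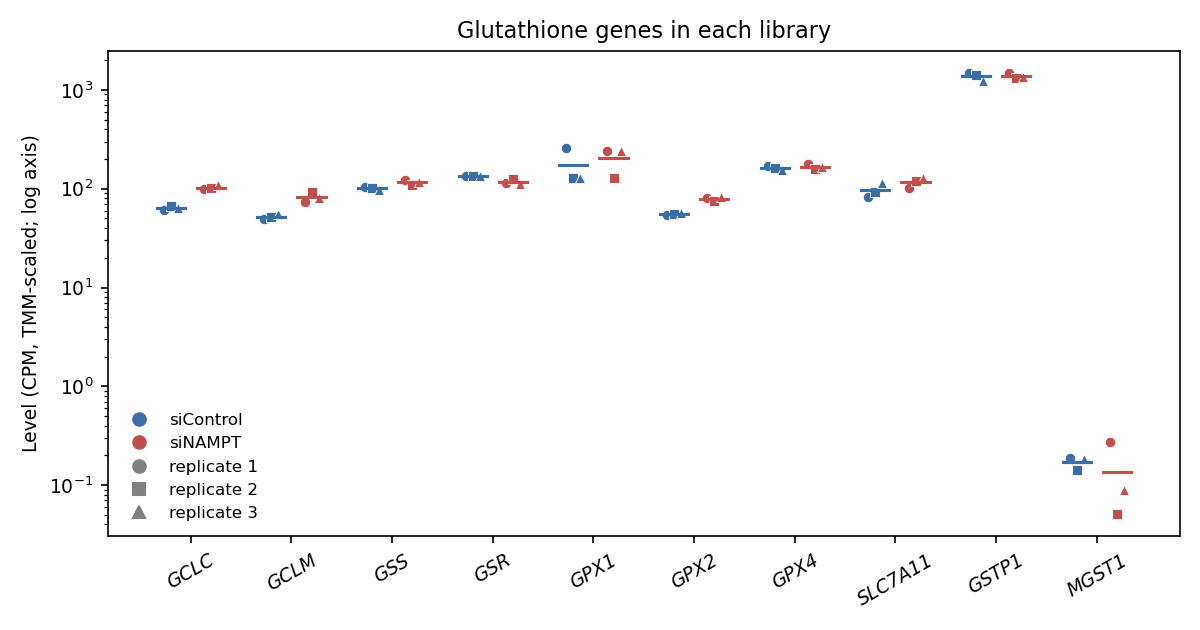
Level of each of the 10 genes in CPM (log axis) in the 3 siControl and 3 siNAMPT libraries. Each symbol is 1 library, shaped by replicate number, and each line is the group mean. GCLC, GCLM and GPX2 stand clearly apart between groups, GPX1 takes 1 of 2 levels in either group, and MGST1 stays near 0.1 CPM.

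The NRF2 factor, encoded by NFE2L2, binds with small MAF proteins to antioxidant response elements and is known to drive GCLC, GCLM, GPX2, GSTP1, GSR and SLC7A11, so the promoters are shown before the values. The core of the element, TGACNNNGC on either strand, was searched from 250 bases before to 50 bases after each RefSeq start site (build GRCh38.p14), a window that holds it in 13.3% of 35116 promoters. Of the 10 genes 7 had a promoter in the table. GCLM, GPX2 and GSTP1 held a match before the start site, MGST1 held 1 in only 1 of its 3 start sites, and GCLC, GPX1 and GPX4 held none in this window. The 250 bases before the start site follow for the 3 genes with an upstream match and for GCLC, which rose about as much as GCLM and has no match here. They are written 5′ to 3′ along the gene, with the match in capitals.
GCLM, chr1:93909431-93909680, minus strand: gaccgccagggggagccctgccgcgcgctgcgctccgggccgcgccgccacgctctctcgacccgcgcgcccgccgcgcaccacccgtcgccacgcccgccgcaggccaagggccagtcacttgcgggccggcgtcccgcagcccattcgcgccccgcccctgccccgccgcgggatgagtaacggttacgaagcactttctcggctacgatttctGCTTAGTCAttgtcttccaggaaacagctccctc
GPX2, chr14:64942746-64942995, minus strand: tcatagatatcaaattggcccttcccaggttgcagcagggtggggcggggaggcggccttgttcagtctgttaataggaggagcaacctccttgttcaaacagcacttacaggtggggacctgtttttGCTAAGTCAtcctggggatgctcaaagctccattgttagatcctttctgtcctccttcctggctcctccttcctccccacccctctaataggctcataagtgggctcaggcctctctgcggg
GSTP1, chr11:67583562-67583811, plus strand: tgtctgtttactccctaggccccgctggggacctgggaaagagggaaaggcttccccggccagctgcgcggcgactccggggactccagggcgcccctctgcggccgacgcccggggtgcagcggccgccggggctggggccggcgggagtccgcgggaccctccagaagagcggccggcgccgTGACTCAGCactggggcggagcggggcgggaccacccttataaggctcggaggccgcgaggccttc
GCLC, chr6:53545102-53545351, minus strand: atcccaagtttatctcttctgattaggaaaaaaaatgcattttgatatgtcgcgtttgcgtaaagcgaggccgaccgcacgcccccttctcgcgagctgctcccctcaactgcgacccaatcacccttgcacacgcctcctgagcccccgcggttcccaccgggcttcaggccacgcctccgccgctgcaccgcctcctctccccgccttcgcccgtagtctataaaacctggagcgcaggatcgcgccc
The match starts 34 bases before the start site in GCLM and 122 bases before it in GPX2, and in both it lies on the other strand, so that GCTTAGTCA is TGACTAAGC and GCTAAGTCA is TGACTTAGC when read there. In GSTP1 TGACTCAGC starts 66 bases before the start site and also contains TGACTCA, the word bound by AP-1. Of the 3 genes with these matches GCLM and GPX2 rose and GSTP1 did not pass the test, and GCLC, with no match in this window, rose. A match is a description of letters and not of binding.

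GCLC and GCLM, the catalytic and the modifier subunit of glutamate-cysteine ligase, the rate-limiting enzyme of glutathione synthesis, rose by similar amounts. GCLC (ENSG00000001084, chromosome 6 from 53497341 to 53616970, minus strand, GRCh38) was at 60.3, 66.7 and 64.3 CPM in siControl and at 98.9, 100.9 and 108.5 CPM in siNAMPT. Every siNAMPT library lay above every siControl library. The means were 63.7 ± 3.23 and 102.8 ± 5.10 CPM (SD, n = 3 each), a 1.61-fold difference with a log2 fold change of 0.69 (SE 0.07, 95% interval 0.53 to 0.85, adjusted p = 2.57e-04). The 2 annotated genes that overlap GCLC had at most 8 counts in any library, against 1282 to 2464 for GCLC.

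GCLM (ENSG00000023909, chromosome 1 from 93885205 to 93909456, minus strand) was at 49.1, 51.4 and 55.5 CPM in siControl and at 74.2, 91.9 and 81.5 CPM in siNAMPT. The lowest siNAMPT library was still well above the highest siControl library. The mean went from 52.0 ± 3.25 to 82.5 ± 8.88 CPM (SD, n = 3 each), which is 1.59-fold, with a log2 fold change of 0.67 (SE 0.09, 95% interval 0.45 to 0.88, adjusted p = 1.22e-03). Both subunits passed the test under all 14 alternative settings, with the highest adjusted p at 0.00165 for GCLC and 0.00671 for GCLM. Because the enzyme is a pair, the ratio of GCLC to GCLM in CPM was taken within each library. It was 1.23, 1.30 and 1.16 in siControl and 1.33, 1.10 and 1.33 in siNAMPT, so the groups overlapped, and the log2 ratio differed by 0.03 (exact two-sided permutation test, p = 0.8).

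GCLM is also the only 1 of the 10 genes whose 3′ UTR holds the 6-base word ACCATA, which earlier work on these data tied to genes lower in siNAMPT. The 3785-base UTR of its principal transcript in GENCODE 29 holds it at positions 808 and 2936, shown here with 10 bases on either side and the word in capitals, read on the transcript strand only.
GCLM site at chr1:93888167-93888192, minus strand: ttgagtatttACCATAtgttgggata
GCLM site at chr1:93886039-93886064, minus strand: gatgtaaaagACCATActatgatggc
Among 12151 tested protein-coding genes whose 3′ UTR had 50 bases or more, 22.4% held the word. Their median log2 fold change was −0.19, against 0.01 for genes without it, while that of GCLM was 0.67. Because the word was tied to lower genes in these same data, the difference in medians is not independent support for it. Among the called genes named below, those lower in siNAMPT also include holders, with 3 copies in SLC25A40 and 2 each in BACH1, LRP8 and PDXDC1. PSAT1, MTHFD2, TXNRD1, SELENOI and DHODH, also lower, hold 1 each, as do GLUL, ME1, AKR1C1 and SELENOP, which were higher. Whether the word acts on GCLM or on any of these genes was not tested.

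GSS, the synthetase that adds glycine to complete the tripeptide, rose by less. GSS (ENSG00000100983, chromosome 20 from 34928430 to 34955817, minus strand) was at 103.4, 101.6 and 96.8 CPM in siControl and at 123.9, 109.7 and 115.7 CPM in siNAMPT. The groups did not overlap, but the gap between the nearest libraries was small. Its mean went from 100.6 ± 3.43 to 116.4 ± 7.14 CPM (SD, n = 3 each), which is 1.16-fold, with a log2 fold change of 0.21 (SE 0.06, 95% interval 0.06 to 0.36, adjusted p = 0.0335). The call was lost without a filter on low counts (adjusted p = 0.0694) and without siControl library 1 (0.0619), 2 (0.0853) or 3 (0.101) or siNAMPT library 1 (0.0682) or 3 (0.0754), with a range of 0.0172 to 0.101 over all alternatives.

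SLC7A11, the light chain of the cystine-glutamate exchanger, was higher on average in siNAMPT but did not pass the test. SLC7A11 (ENSG00000151012, chromosome 4 from 138164097 to 138242349, minus strand) was at 82.0, 92.9 and 114.1 CPM in siControl and at 101.0, 119.7 and 127.9 CPM in siNAMPT. The groups overlapped, because siControl library 3 lay above siNAMPT library 1. The means were 96.3 ± 16.4 and 116.2 ± 13.8 CPM (SD, n = 3 each), and the log2 fold change was 0.27 (SE 0.14, 95% interval −0.05 to 0.59, adjusted p = 0.146). The gene passed the test with an offset for GC content and transcript length (log2 fold change 0.46, adjusted p = 0.0015). It also passed without siControl library 3 (0.41, adjusted p = 0.0343) and with the replicate number as a block (0.28, adjusted p = 0.0194). Over all alternatives the adjusted p ran from 0.0015 to 0.365. Its antisense gene SLC7A11-AS1 had 4 counts in siControl library 3, 4 in siNAMPT library 3 and 0 in the others.

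SLC3A2, the heavy chain that carries SLC7A11 and several other amino acid transporters to the membrane, fell. It was at 1127, 1071 and 1060 CPM in siControl and at 780, 764 and 721 CPM in siNAMPT, with no overlap (log2 fold change −0.52, SE 0.05, adjusted p = 2.03e-04). The ratio of SLC7A11 to SLC3A2 was 0.0727, 0.0868 and 0.108 in siControl and 0.129, 0.157 and 0.177 in siNAMPT. The light chain was thus more frequent relative to the heavy chain in every siNAMPT library, by 0.80 on the log2 scale or 1.74-fold (exact two-sided permutation test, p = 0.1, the smallest p that 3 libraries against 3 allow).

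GSR, glutathione reductase, which uses NADPH to turn oxidised glutathione back into the reduced form, was the 1 gene of the 10 that fell. GSR (ENSG00000104687, chromosome 8 from 30678061 to 30727926, minus strand) was at 136.1, 135.1 and 135.2 CPM in siControl and at 113.6, 125.6 and 111.7 CPM in siNAMPT. The siControl libraries were nearly equal, and all siNAMPT libraries lay below them. The mean went from 135.5 ± 0.561 to 117.0 ± 7.56 CPM (SD, n = 3 each), 13.7% lower, with a log2 fold change of −0.21 (SE 0.06, 95% interval −0.36 to −0.07, adjusted p = 0.0271). The call was lost with upper quartile scaling (adjusted p = 0.0620), with limma on log2(FPKM + 0.1) (0.0530) and without siControl library 1 (0.0720), 2 (0.0727) or 3 (0.0627) or siNAMPT library 1 (0.0658) or 3 (0.0919). Over all alternatives its adjusted p ran from 0.00733 to 0.0919.

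**Figure D2:**
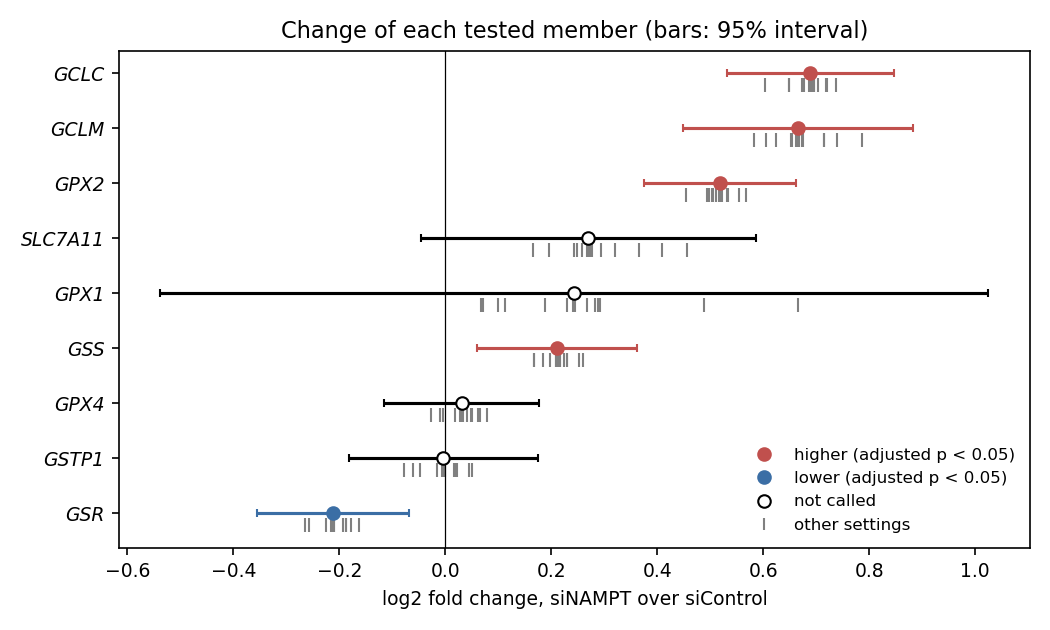
Log2 fold change of each of the 9 tested genes, siNAMPT over siControl. Points with bars give the estimate and its 95% interval, coloured where the adjusted p was under 0.05, and grey ticks give the estimate under each alternative setting. GCLC, GCLM and GPX2 lie far from 0 under every setting, GSS and GSR lie near 0.21 and −0.21, and the interval of GPX1 is the widest.

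Of the 3 peroxidases GPX2 alone was called. GPX2, a selenium-containing peroxidase best known from gut epithelium, rose. GPX2 (ENSG00000176153, chromosome 14 from 64939152 to 64942905, minus strand) was at 54.1, 56.1 and 56.7 CPM in siControl and at 80.8, 75.7 and 82.4 CPM in siNAMPT. Both groups were tight and far apart. The mean went from 55.6 ± 1.35 to 79.6 ± 3.47 CPM (SD, n = 3 each), which is 1.43-fold, with a log2 fold change of 0.52 (SE 0.06, 95% interval 0.37 to 0.66, adjusted p = 5.95e-04), and the call held under all 14 alternatives. GPX2 is overlapped on the other strand by CHURC1 and by the read-through gene CHURC1-FNTB, and whether the counting used strand is not stated. CHURC1 averaged 20.3 CPM under siControl and 23.2 CPM under siNAMPT (adjusted p = 0.153). CHURC1-FNTB had 180, 152 and 378 counts in siControl and 166, 151 and 434 in siNAMPT, a pattern by library that GPX2 did not show.

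GPX4, the selenium-containing peroxidase that reduces lipid hydroperoxides in membranes and restrains ferroptosis, did not pass the test. GPX4 (ENSG00000167468, chromosome 19 from 1103926 to 1106791, plus strand) was at 170.1, 163.9 and 154.7 CPM in siControl and at 176.2, 158.6 and 164.4 CPM in siNAMPT. The libraries of the groups were interleaved. The means were 162.9 ± 7.73 and 166.4 ± 8.96 CPM (SD, n = 3 each), and the 95% interval of the log2 fold change ran from −0.12 to 0.18 (estimate 0.03, SE 0.06, adjusted p = 0.725), which corresponds to 0.922-fold to 1.13-fold.

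GPX1, the abundant selenium-containing peroxidase of cytosol and mitochondria, varied more between libraries of 1 group than between the groups. GPX1 (ENSG00000233276, chromosome 3 from 49357176 to 49358600, minus strand) was at 259.5, 128.1 and 128.5 CPM in siControl and at 243.3, 128.6 and 239.1 CPM in siNAMPT. The libraries fell on 2 levels, with siControl library 1 and siNAMPT libraries 1 and 3 at 239 to 259 CPM and the other 3 at 128 to 129 CPM. The group means were 172.1 ± 75.7 and 203.6 ± 65.0 CPM (SD, n = 3 each), and the log2 fold change of 0.24 (SE 0.33, 95% interval −0.54 to 1.03, adjusted p = 0.590) leaves a range from 0.689-fold to 2.03-fold. Its smallest adjusted p under any alternative was 0.095. This arrangement crosses the siRNA groups.

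Genes near GPX1 or like it in sequence did not share these levels. RHOA, its upstream neighbour on the same strand, was at 396, 423 and 389 CPM in siControl and at 395, 446 and 403 CPM in siNAMPT (adjusted p = 0.628). The pseudogene GPX1P1 was at 3.36 and 2.79 CPM on average and GPX1P2 had no count. NFE2L2, which encodes NRF2, was at 113.1, 27.1 and 47.4 CPM in siControl and at 75.1, 46.7 and 111.0 CPM in siNAMPT, so its 3 highest libraries were those of GPX1. Its group means, 62.6 ± 45.0 and 77.6 ± 32.2 CPM (SD, n = 3 each), did not differ beyond this spread (log2 fold change 0.31, SE 0.51, adjusted p = 0.655). The estimate for NFE2L2 rests on single libraries, since it was 1.06 without siControl library 1 (adjusted p = 0.0771), −0.05 without siControl library 2 and −0.04 without siNAMPT library 3. None of the other 9 genes had this arrangement with a gap of at least 1.25-fold, and what sets it was not tested.

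**Figure D3:**
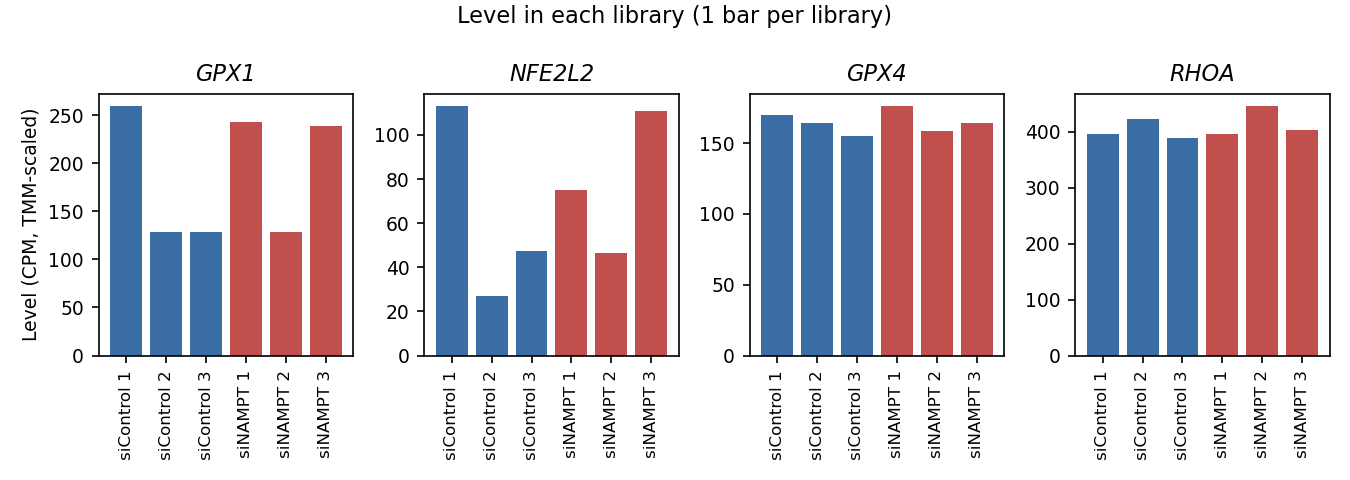
Level in CPM of GPX1, of NFE2L2, of GPX4 and of RHOA, the neighbour of GPX1, with 1 bar per library (axes start at 0, siControl in blue, siNAMPT in red). GPX1 and NFE2L2 are high in siControl 1, siNAMPT 1 and siNAMPT 3, and neither GPX4 nor RHOA follows them.

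GSTP1, the pi-class transferase that joins glutathione to electrophiles, was the most abundant of the 10 genes and did not pass the test. GSTP1 (ENSG00000084207, chromosome 11 from 67583595 to 67586660, plus strand) was at 1491, 1430 and 1240 CPM in siControl and at 1474, 1334 and 1343 CPM in siNAMPT. The groups overlapped, and siControl library 3 was the lowest of all. The means were 1387 ± 131 and 1383 ± 78.3 CPM (SD, n = 3 each), with a 95% interval of the log2 fold change from −0.18 to 0.17 (adjusted p = 0.974), that is, 0.881-fold to 1.13-fold. GSTP1 alone held 0.124 to 0.147% of all counts of a library, out of 0.205 to 0.247% for the 10 genes together. Its pseudogene GSTP1P1 had no count.

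MGST1, a membrane-bound transferase of the endoplasmic reticulum and outer mitochondrial membrane, was barely detected. MGST1 (ENSG00000008394, chromosome 12 from 16347142 to 16609259, plus strand) had 4, 3 and 4 counts in siControl and 6, 1 and 2 in siNAMPT. At this depth no difference was detectable, and the gene did not enter the test. MGST2 and MGST3, its relatives, were at 51.3 and 73.2 CPM in siControl and both rose (log2 fold changes 0.40 and 0.47, adjusted p = 0.0258 and 0.00607). The call of MGST3 held under all alternatives and that of MGST2 did not (highest adjusted p 0.0774), and MGST2 was chosen for naming after its values were seen.

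Levels of different genes can be compared only per length, and here the order depends on which length is used. The deposited FPKM values, which divide each count by a gene length and the library total, rest on a length that, for 86.2% of 14113 genes, equals the summed length of all distinct exons of all transcripts within 1 base. Among the 10 genes, the deposited length fell below this sum for GCLC, GSS, GSR, GPX1 and GSTP1. For GSS it was 2175 bases, against a sum of 15383 and merged exons of 6174 bases. The deposited length exceeds the gene itself for some members, with 5525 bases for GPX4 against a locus of 2866 bases, and 3729 bases for GPX1 against 1425. Per kilobase of merged exons, GSTP1 was highest in siControl at 720 ± 62.5, followed by GPX1 at 119 ± 51.8 and GPX4 at 80.0 ± 3.18 (SD, n = 3 each, in CPM per kilobase). GPX1 and GPX4 do not differ beyond the spread of GPX1. GPX2 at 36.8 ± 1.14 and GSR at 35.8 ± 0.251 were neighbours within the spread of GPX2. GSS at 16.2 ± 0.421 came next, and SLC7A11 at 9.92 ± 1.77, GCLM at 9.52 ± 0.674 and GCLC at 7.32 ± 0.388 were the lowest of the expressed genes, the spread of SLC7A11 covering GCLM. MGST1 was at 0.0229.

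In siNAMPT the same scale gave 53.4 for GPX2 and 31.3 for GSR, so that GPX2 was then above GSR beyond their spread of 2.40 and 2.10. GCLM reached 15.3 ± 1.76 and GCLC 11.96 ± 0.710, and GCLC lay within the spread of SLC7A11 at 12.1 ± 1.57. Under the deposited FPKM the siControl order differed, with GSS at 45.9 in the second place beside GPX1 at 45.7, GPX4 at 29.3 below GSR at 33.3, and GPX2 at 12.4. Per kilobase of a single principal transcript GPX4 was at 176 and GPX1 at 148, GCLC at 16.6 was above GCLM at 10.6, and GSTP1 at 1431 was still first. GSTP1 was first and MGST1 last on all 3 scales.

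**Figure D4:**
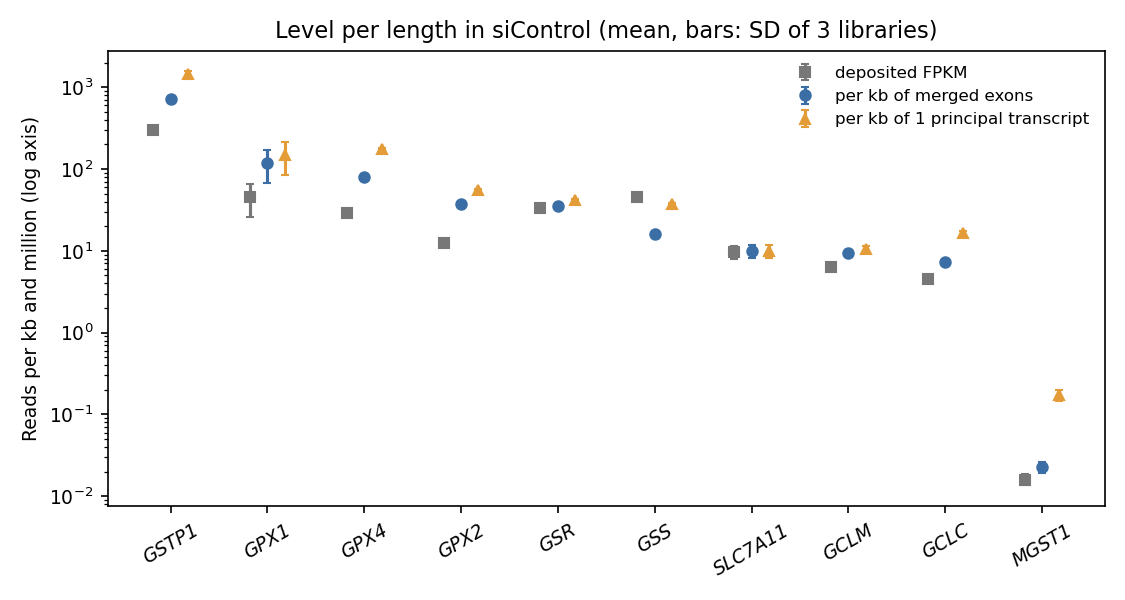
Level of each gene in siControl in CPM per kilobase (log axis), as mean with SD of 3 libraries, for the deposited FPKM, for merged exons and for 1 principal transcript. GSTP1 is highest and MGST1 lowest on every scale, while GSS, GPX2, GPX4 and GCLC change places.

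The genes around this pathway were counted in 13 lists, some of which share members. Among other peroxidases GPX5, GPX6 and GPX7 had no count, GPX3 had 2 counts in all, and GPX8, a peroxidase of the endoplasmic reticulum, averaged 33.9 CPM under siControl and 24.7 CPM under siNAMPT without passing the test (log2 fold change −0.46, adjusted p = 0.170). Of 12 tested glutathione transferases other than GSTP1 and MGST1, 6 rose, none fell and 6 did not pass, with a median log2 fold change of 0.29. Over all genes tested 20.8% were called higher and 21.9% lower, and the counts of the lists stand beside that background. GSTZ1, which isomerises maleylacetoacetate in tyrosine breakdown, rose most of these that were called, from 17.8 to 28.8 CPM (0.69, adjusted p = 3.77e-04). GSTT2 and GSTT2B, which were not called, are near-identical copies whose reads could have been shared in counting.

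Glutathione breakdown was mixed, with 3 of 9 tested genes higher, 2 lower and 4 not called (median −0.01). CHAC1, a cytosolic glutathione-degrading enzyme induced by ATF4, went from 7.69 to 1.68 CPM (−2.20, adjusted p = 5.59e-04), and CHAC2 fell by 0.41 on the log2 scale (adjusted p = 0.0195), a call lost without siControl library 2 (0.0552) or 3 (0.0590). The gamma-glutamyl transferases GGT6 (0.87, from 1.15 CPM, adjusted p = 0.0286) and GGT1 (0.43, adjusted p = 0.0332) rose, though neither call held under every alternative (highest adjusted p 0.0837 and 0.0893). Of 10 transport genes 1 rose, 4 fell and 5 were not called (median −0.09). ABCC2, which exports glutathione conjugates, rose from 8.00 to 10.9 CPM (0.45, adjusted p = 0.0324), a call lost under some alternatives (highest adjusted p 0.101). SLC25A40, a carrier that brings glutathione into mitochondria, fell from 24.6 to 11.6 CPM (−1.09, adjusted p = 2.53e-04). Its more abundant relative SLC25A39 averaged 153.2 CPM under siControl and 138.1 CPM under siNAMPT and was not called (−0.15, adjusted p = 0.189). SLC25A11, the oxoglutarate carrier, fell from 131.5 to 90.8 CPM (−0.53, adjusted p = 7.48e-04). The list of 14 glutaredoxins, glyoxalases and others includes genes not known to use glutathione. Of the 14, 2 rose, 3 fell and 9 were not called (median −0.19). PDXDC1, which is not known to use glutathione, fell most of these that were called (−0.85, adjusted p = 1.72e-04). PRDX6, a peroxiredoxin that takes electrons from glutathione, was lower at 236.5 against 319.9 CPM (−0.44, adjusted p = 3.54e-04). TSTD1 (0.64, adjusted p = 0.00504) and CLIC1 (0.28, adjusted p = 0.0149) rose.

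Genes listed around the amino acids of glutathione were called in both directions. In the list of cysteine supply and use, not all of which supply cysteine, 3 of 15 tested genes rose and 5 fell (median −0.09). SLC3A2 was among the latter, together with MAT2A, which makes S-adenosylmethionine (−0.45, adjusted p = 4.25e-04). TXNDC12 (0.53) and MAT2B (0.47) rose. For glutamate and glycine 2 of 12 rose and 7 fell (median −0.22). GLUL, which turns glutamate into glutamine, rose from 148.5 to 405.3 CPM (1.45, adjusted p = 2.86e-05). PSAT1, a step of serine synthesis upstream of glycine, fell from 349.4 to 99.6 CPM (−1.81, adjusted p = 7.02e-06), and SLC1A3, a glutamate carrier, from 119.2 to 59.3 CPM (−1.01, adjusted p = 0.0114).

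NADPH is the electron donor of GSR. Of 15 tested genes in a list around NADPH supply, not all of which make it, 6 rose, 4 fell and 5 were not called (median 0.11). Malic enzyme ME1 rose from 25.0 to 57.8 CPM (1.21, adjusted p = 1.97e-05), and TKT, a transketolase of the pentose phosphate pathway, rose from 644.0 to 1133 CPM (0.82, adjusted p = 5.42e-05). The mitochondrial enzymes IDH2 (14.4 to 3.40 CPM, adjusted p = 2.80e-05) and MTHFD2 (123.0 to 48.0 CPM, adjusted p = 1.62e-05) fell.

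In a list of NRF2 itself, related factors, DNA-binding partners and competitors, and regulators, none of 16 tested genes rose and 5 fell (median −0.11). Not all of these genes regulate NRF2. KEAP1, the adaptor that marks NRF2 for destruction, went from 118.5 ± 5.49 to 108.1 ± 5.24 CPM (SD, n = 3 each; log2 fold change −0.13, adjusted p = 0.129), and passed the test with the offset for GC content and length (adjusted p = 0.0179). BACH1, a repressor that competes for the same elements, fell from 18.8, 23.0 and 23.6 CPM to 8.24, 12.9 and 11.4 CPM (−1.01, SE 0.17, adjusted p = 3.04e-03). NFE2L3, a factor related to NRF2, fell from 60.9 to 22.5 CPM (−1.44, adjusted p = 8.07e-05). Of 27 other NRF2 target genes 14 rose, 2 fell and 11 were not called (median 0.28), where 20.8% of all genes were higher and 21.9% lower, with HMOX1 rising from 6.96 to 240.9 CPM and AKR1C1, which has near-identical relatives, from 40.1 to 117.4 CPM. The 2 that fell were TXNRD1, a thioredoxin reductase (−0.67, adjusted p = 2.32e-03), and SRXN1, which repairs overoxidised peroxiredoxins (−0.28, adjusted p = 0.00988).

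GPX1, GPX2 and GPX4 need selenocysteine, and of 16 tested genes of selenoprotein synthesis 1 rose (CELF1, 0.43, adjusted p = 0.00390), 5 fell and 10 were not called (median −0.13). The largest falls were those of SCLY, which frees selenium from selenocysteine (−0.87, adjusted p = 0.00379), and LRP8, a receptor for selenoprotein P (−0.77, adjusted p = 1.24e-04). Other selenoproteins were mixed, with 3 higher, 4 lower and 9 not called of 16 (median 0.03), SELENOP rising from 4.51 to 12.6 CPM (1.47, adjusted p = 0.00272) and SELENOI falling (−0.52, adjusted p = 0.00428). Of 17 genes of lipid peroxidation and its brakes outside GPX4, 3 rose, 4 fell and 10 were not called (median 0.09). SCD, which makes monounsaturated fatty acids, rose from 2493 to 3981 CPM (0.68, adjusted p = 2.80e-05), and DHODH, a mitochondrial enzyme that can protect lipids beside GPX4, fell from 17.4 to 9.61 CPM (−0.86, adjusted p = 5.56e-04).

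**Figure D5:**
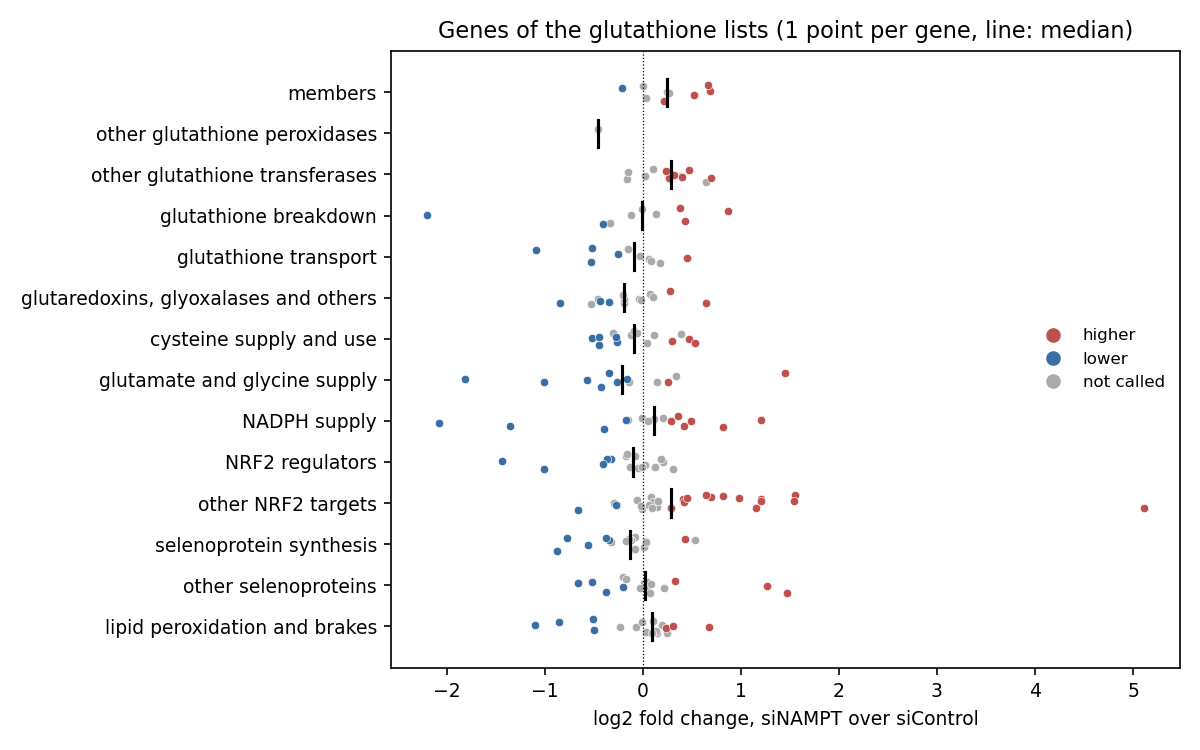
Log2 fold change, siNAMPT over siControl, of every tested gene of the 10 genes (top line, 9 tested) and of the 13 lists around them, 1 point per gene, with the median as a bar. Points are coloured where the adjusted p was under 0.05. Transferases and NRF2 targets have medians of 0.29 and 0.28, and glutamate and glycine supply has the lowest median of the lists with more than 1 tested gene, −0.22.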

How the data were processed

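RNA-seq libraries of B4G12 cells were paired-end mRNA libraries sequenced by Illumina NovaSeq (per the labels). Per the file headers, the authors deposited raw counts and FPKM for each gene. The counts are whole numbers and were tested as they are. The FPKM values deposited by the authors were used for length checks, for ratios of genes and for limma. Which aligner, counter, strand setting and annotation release were used is not given in the sources used here. GRCh38 and mm10 are the builds in the submitters' processing notes. Of the gene IDs 98.5% are in GENCODE 29, 94.8% of them at the same position, and GRCh38 coordinates are printed.

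Groups and replicate numbers came from the sample titles. The test was the quasi-likelihood test of edgeR 4.0.16 (R 4.3.3; filterByExpr and TMM, glmQLFit, glmQLFTest), run two-sided on siNAMPT against siControl with Benjamini-Hochberg adjustment over all 15213 genes tested and a threshold of 0.05. The SE is the log2 fold change divided by the root of F. Ratios of 2 genes were tested by exact permutation on the log2 scale. CPM are scaled by TMM factors of 0.988 to 1.02. Floors cover counting error only.

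The 10 genes and the gene lists were chosen with earlier results of these data known. All 10 genes, NAMPT, SLC3A2, NFE2L2, KEAP1 and BACH1 are named, with genes that overlap the 10 or are their pseudogenes. From each list the rule allows the 2 largest called rises and the 2 largest called falls at 1 CPM or more. Genes outside this rule (RHOA, GPX3, GPX5, GPX6, GPX7, GPX8, GSTT2, GSTT2B, MGST2, SLC25A39 and the genes listed by library pattern) were chosen after their values were seen. Promoters came from RefSeq (GRCh38.p14).

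Alternatives were size factors by RLE and by upper quartile, no filter, DESeq2 1.42.0, limma 3.58.1 on log2(FPKM + 1) and log2(FPKM + 0.1), the replicate number as a block, an offset for GC content and length, and leaving out each library. In simulated data of 15213 genes, the test called 3 of 50 genes changed 1.25-fold and 27 of 50 changed 1.5-fold. It called 44 of 50 changed 2-fold and 50 of 50 changed 4-fold. A gene that was not called may thus still differ by a small amount. Far fewer genes were changed there than were called in the data, so these shares may not carry over. Python 3.11.15, pandas 2.3.3 and matplotlib 3.10.9 made tables and figures.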

Additional observations from a re-analysis of the deposited data

How the results depend on the processing

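The calls of GCLC, GCLM and GPX2 and the fall of NAMPT held under all 14 alternatives, and no called value of the 10 genes changed direction. Of the 10 genes 5 were called; the count was 3 to 5 when single libraries were left out, 3 without siControl 1, siControl 2, siNAMPT 1 or siNAMPT 3, 4 without siControl 3 and 5 without siNAMPT 2. Fewer libraries remain in these fits. It was 4 to 6 under the other settings. The deviations of same-numbered libraries had low correlations (0.064, 0.009 and 0.048), against −0.065 to 0.02 for libraries of unlike number. Pairing by number was not assumed in the main test. With the number as a replicate block, 6336 genes were called in place of 6500 and 6 of the 10 genes, SLC7A11 with adjusted p = 0.0194, and within numbers the exact permutation p was 1 for GCLC to GCLM and 0.25 for SLC7A11 to SLC3A2. Depth limits MGST1, which lies near the floor of 3 counts.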

Other observations

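The arrangement of libraries seen in GPX1 was searched for in all 11198 genes with a mean count of at least 100. In 10 genes siControl 1, siNAMPT 1 and siNAMPT 3 all lay at least 1.25-fold above the other 3 libraries, and in 9 genes they all lay at least 1.25-fold below, which is 0.17% of genes in all. These genes were chosen after their values were seen, and the libraries are not groups of the study. Beside GPX1 and NFE2L2 the high genes were SCHIP1, ZMYND11, PPARA, MAP1LC3B, IFITM1, HLA-C, TRAPPC1 and C18orf32. The low genes were HCP5, ZBTB3, RPL17-C18orf32, ZNF358, MPHOSPH10, NOP14-AS1, INO80B, YAF2 and FUNDC1. The gap was widest for HCP5, a transcript of the major histocompatibility region, which was at 3.34, 36.9 and 33.2 CPM in siControl and at 3.33, 40.0 and 4.41 CPM in siNAMPT. SCHIP1 was at 19.0, 2.60 and 2.86 CPM in siControl and at 20.0, 4.62 and 22.6 CPM in siNAMPT. MAP1LC3B, which encodes an autophagosome protein, was at 72.5, 38.3 and 40.9 CPM in siControl and at 75.9, 48.6 and 81.9 CPM in siNAMPT. The read-through gene RPL17-C18orf32, which overlaps C18orf32, was low where C18orf32 was high. What these genes share was not tested.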
